A study of Mus musculus with 6 samples.

Results

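Transcripts of 7 genes were followed in the mouse modiolus after noise: the ferritin receptor Scara5, the neuronal protease Prss12, the apelin receptor Aplnr with its ligand Apln, and the glial receptors Gpr37l1 and Gpr37 with Psap, which encodes prosaposin, a protein that both have been reported to bind. Every probe set annotated to exactly 1 of these genes was taken, which gave 10 of the 45101 probe sets on the array. Scara5, Prss12, Aplnr and Gpr37l1 are 4 of the 9 entries that the authors' deposited list of called receptors names as higher after noise. They were therefore chosen by the very difference between noise-exposed and unexposed mice, and that difference is given below as a description, without a test. Apln, Gpr37 and Psap were added as ligand, relative and proposed ligand, also with the results of these arrays known.

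In the mammalian cochlea the modiolus forms the bony axis, which houses the spiral ganglion with its neurons, glia and vessels. Both modioli of a CBA/CaJ mouse were pooled, and the RNA of 6 mice was hybridised to 1 Affymetrix mouse genome array each. The noise-exposed group was 3 females of 1 litter that at 4 weeks of age had spent 5 h in noise of 5 to 20 kHz at 110 dB SPL. The unexposed group was 1 female and 2 males of 3 other litters, which had stayed in the holding room, and all animals were killed at 8 weeks of age. All noise-exposed mice and unexposed replicate 1, a male, were dissected on the first of 2 days, and unexposed replicate 2, a female, and replicate 3, a male, on the second, so litter cannot be told apart from exposure, and sex and day only through 1 unexposed mouse each. Signals are log2 values of RMA, the array summary used by the authors, who set 4.25 as the limit between background and expression. That cutoff was passed by 24671 to 25371 probe sets on each array, and precision is limited by there being 6 arrays. In such mixed tissue, fewer cells of a type and less RNA per cell cannot be told apart. The neuronal markers Tubb3, Nefl and Snap25 were above the cutoff on all 6 arrays, while none of the 4 hair cell markers Myo7a, Otof, Slc26a5 and Pou4f3 was measured by the rule used here (above the cutoff on at least 3 of 6 arrays).

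The genes belong to separate systems. Scara5 is a scavenger receptor of class A that takes up serum ferritin and with it iron, a route beside the transferrin receptor. Prss12, or neurotrypsin, is a serine protease that neurons secrete at synapses, where it cleaves the proteoglycan agrin. The apelin receptor is a G protein-coupled receptor of endothelial and other cells, best known from vessel growth and the heart, and its peptide ligands are apelin and elabela. Gpr37 and Gpr37l1 are close relatives among G protein-coupled receptors, and in the mouse brain the former is typical of oligodendrocytes and the latter of astrocytes. Prosaposin is cut in lysosomes into saposins, which help enzymes to degrade sphingolipids, and its secreted form protects neurons and glia in culture.

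The start regions of Gpr37l1 and Gpr37 are shown because 1 of these relatives was separated between the groups and the other was not, and that of Prss12 because it had the widest separation of the 10 probe sets. Each runs from 250 bases before to 50 after the gene's start, 5′ to 3′ on the gene's strand, from RefSeq on GRCm38.p6. Capitals mark CG dinucleotides.
Gpr37l1, chr1:135167632-135167931, minus strand: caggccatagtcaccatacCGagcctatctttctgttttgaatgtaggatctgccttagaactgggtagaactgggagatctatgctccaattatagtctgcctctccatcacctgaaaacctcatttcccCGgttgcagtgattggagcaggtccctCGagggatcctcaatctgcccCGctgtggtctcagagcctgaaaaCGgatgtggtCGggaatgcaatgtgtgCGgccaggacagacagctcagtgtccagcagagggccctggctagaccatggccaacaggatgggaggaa
Gpr37, chr6:25689931-25690230, minus strand: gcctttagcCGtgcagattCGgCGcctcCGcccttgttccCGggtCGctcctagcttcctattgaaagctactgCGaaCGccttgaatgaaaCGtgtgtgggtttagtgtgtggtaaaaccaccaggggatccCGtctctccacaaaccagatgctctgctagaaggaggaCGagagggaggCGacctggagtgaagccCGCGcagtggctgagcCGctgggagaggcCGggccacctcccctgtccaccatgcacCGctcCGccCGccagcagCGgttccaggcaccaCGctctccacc
Prss12, chr3:123446663-123446962, plus strand: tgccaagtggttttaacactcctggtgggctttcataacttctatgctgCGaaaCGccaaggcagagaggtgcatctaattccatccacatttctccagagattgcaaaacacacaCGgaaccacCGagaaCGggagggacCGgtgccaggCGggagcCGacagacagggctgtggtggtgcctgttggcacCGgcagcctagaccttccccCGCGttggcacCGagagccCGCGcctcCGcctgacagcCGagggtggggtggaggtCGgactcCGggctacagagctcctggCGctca
The Gpr37l1 region held 7 CG dinucleotides, which is also the median over 32851 such regions, and 52.1% of them held as many or more. Gpr37 held 21 and Prss12 19, reached by 24.8% and 28.1% of regions. The letters GGGCGG, searched on both strands, were present for Gpr37 and absent for Gpr37l1 and Prss12, against 35.7% of all regions. TATAAA was in none of the 3 and in 13.6% of all. The arrays measured transcript only, and these matches describe letters, not use of a site.

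Scara5 was higher in the noise-exposed mice on the probe set that detected it. On the brighter of its 2 probe sets its log2 signal was 6.19, 5.46 and 5.79 in the noise-exposed mice (replicates 1 to 3) and 5.13, 5.41 and 4.46 in the unexposed mice. All 3 noise-exposed values lay above all 3 unexposed ones, but noise-exposed replicate 2 exceeded unexposed replicate 2 by only 0.045. The means were 5.81 ± 0.37 (SD, n = 3) and 5.00 ± 0.49, a difference of 0.81 (SE 0.28). Unexposed replicate 3 was the lowest array, and without it the difference was 0.54 (SE 0.24). The dimmer probe set lay below the cutoff on all 6 arrays, between 2.90 and 3.38, so it was not tested and gives no second reading of the gene.

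Prss12 had a single probe set and the clearest separation of the members. Its log2 signal was 7.36, 7.29 and 6.92 in the noise-exposed mice against 6.71, 6.20 and 6.43 in the unexposed mice. The lowest noise-exposed value exceeded the highest unexposed one by 0.21. Means of 7.19 ± 0.24 and 6.45 ± 0.25 (SD, n = 3 each) gave a difference of 0.75 (SE 0.19), and with any 1 array left out it stayed between 0.63 and 0.88. The nearest unexposed mouse was replicate 1, dissected on the same day, and against it alone the difference was 0.49.

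Aplnr gave different readings on its 2 probe sets. On the brighter one, which is in the authors' list, the log2 signal was 7.03, 7.20 and 7.84 in the noise-exposed mice and 6.10, 6.81 and 7.03 in the unexposed mice. The groups touched, since noise-exposed replicate 1 exceeded unexposed replicate 3 by 0.0031. The difference of the means, 7.36 ± 0.43 and 6.64 ± 0.49 (SD, n = 3 each), was 0.71 (SE 0.30). It was 0.44 without unexposed replicate 1 and 0.47 without noise-exposed replicate 3, so each of these arrays carried a large part of it. On the dimmer one the noise-exposed mice had 5.68, 6.07 and 6.04 and the unexposed mice 5.60, 5.85 and 6.16. Here the groups overlapped and the difference was 0.06 (SE 0.19).

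The ligand gene Apln was close to the cutoff. Its only probe set had 4.18, 4.52 and 4.87 in the noise-exposed and 4.27, 4.41 and 4.58 in the unexposed mice, above the cutoff on 5 of 6 arrays. The groups overlapped, with a difference of 0.11 (SE 0.20). The other ligand gene of the receptor, Apela, was on the array and was not measured by the rule.

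Gpr37l1 was higher in all noise-exposed mice, and Gpr37 was not. The log2 signal of Gpr37l1 was 6.16, 5.92 and 6.14 in the noise-exposed mice, a narrow range, and 4.90, 5.74 and 5.68 in the unexposed mice. The lowest noise-exposed mouse lay 0.18 above the highest unexposed one. The means were 6.07 ± 0.13 and 5.44 ± 0.47 (SD, n = 3 each), a difference of 0.63 (SE 0.24), and without unexposed replicate 1, the lowest array, it was 0.36 (SE 0.16). Gpr37 had 6.70, 7.36 and 7.32 against 6.40, 7.12 and 7.28. Its groups overlapped, its difference was 0.19 (SE 0.28), and without unexposed replicate 1 it was -0.07. The 2 receptors shared their lowest array, unexposed replicate 1, and differed in noise-exposed replicate 1, where Gpr37l1 was at its highest value and Gpr37 at its lowest among noise-exposed mice. Whether the differences of the 2 genes differ from each other was not tested.

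Psap, far above the cutoff, was read by 2 probe sets that the annotation gives the same source sequence, so they are not independent. On the brighter one it had 11.73, 11.59 and 11.44 in the noise-exposed and 11.39, 11.05 and 11.40 in the unexposed mice. On the dimmer one it had 10.35, 10.20 and 9.87 against 9.86, 9.48 and 9.74. Both probe sets separated the groups narrowly, by 0.038 and 0.0094, with noise-exposed replicate 3 as the lowest of its group and unexposed replicate 2 as the lowest of all. The differences were 0.31 (SE 0.16) and 0.45 (SE 0.18), ratios of 1.24 and 1.36. Without unexposed replicate 2 they were 0.20 (SE 0.16) and 0.34 (SE 0.19).

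**Figure D1:**
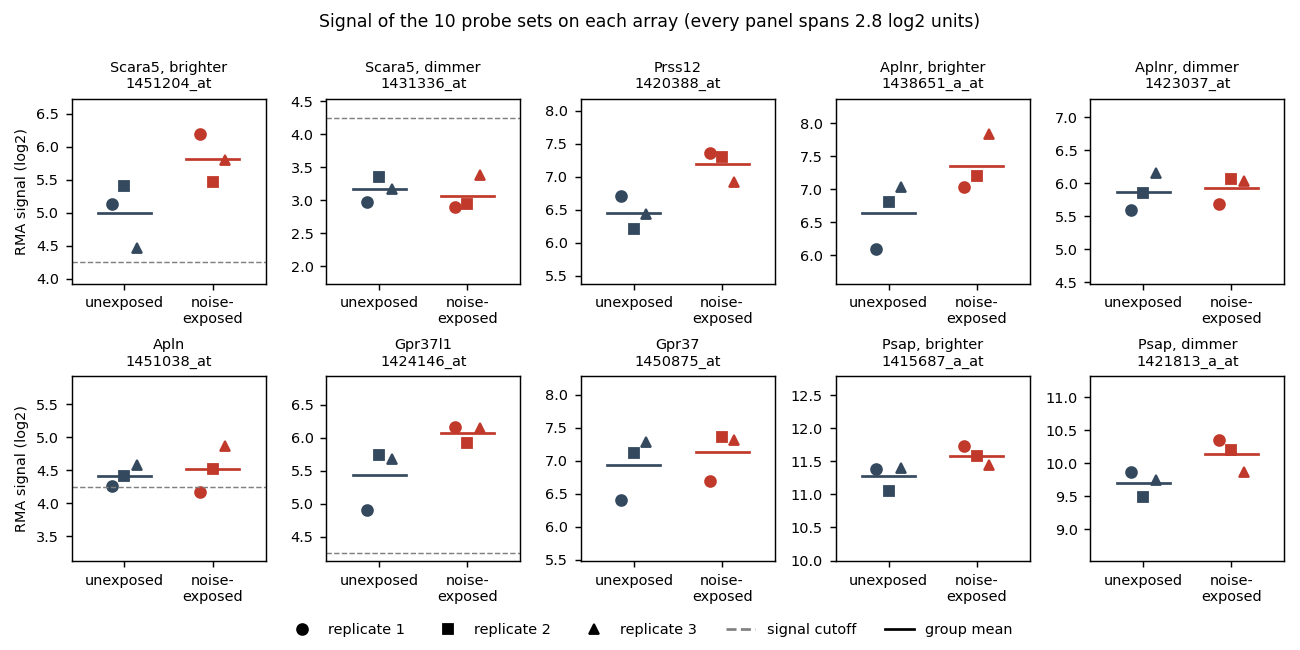
RMA signal (log2, vertical axis) of the 10 probe sets in the 3 unexposed (dark) and 3 noise-exposed mice (red), with marker shape for the replicate, a bar for the group mean and a dashed line at the cutoff of 4.25. The brighter Scara5 and Aplnr probe sets, Prss12, Gpr37l1 and both Psap probe sets show no overlap of the groups, and the other 4 do.

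Among the 9 tested member probe sets, 6 showed all noise-exposed mice above all unexposed mice and 3 overlapped. Over all 25200 tested probe sets, 8.47% were separated upward and 5.02% downward. With the authors' minimum fold of 1.45 added, the 4 members of their list were left, against 1.29% of all tested probe sets. Because the list was made from this separation, nothing is read from these counts. Closest to the minimum were Gpr37l1, inside it with a ratio of 1.55, and the dimmer Psap probe set, outside it with 1.36, although Psap was not in the authors' receptor table. limma called no probe set in either direction over the whole array (0% at an adjusted p under 0.05, lowest adjusted p 0.265), while 1781 had an unadjusted p under 0.05.

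The unexposed mice differed among themselves in which of the 4 listed genes was low. Scara5 was lowest in unexposed replicate 3, Prss12 in replicate 2, and Aplnr and Gpr37l1 in replicate 1. Against unexposed replicate 1 alone, the only unexposed mouse of the first day, the noise-exposed means differed by 0.68 for Scara5, 0.49 for Prss12, 1.26 for the brighter Aplnr probe set and 1.17 for Gpr37l1. Against unexposed replicate 2 alone, the only unexposed female, the same genes differed by 0.40, 0.99, 0.55 and 0.33. Against replicate 3 they differed by 1.35, 0.77, 0.33 and 0.39. The direction, which the choice of these genes fixes, was the same against each of the 3 mice, while the size ran from 0.33 to 1.26 for Aplnr and from 0.40 to 1.35 for Scara5.

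**Figure D2:**
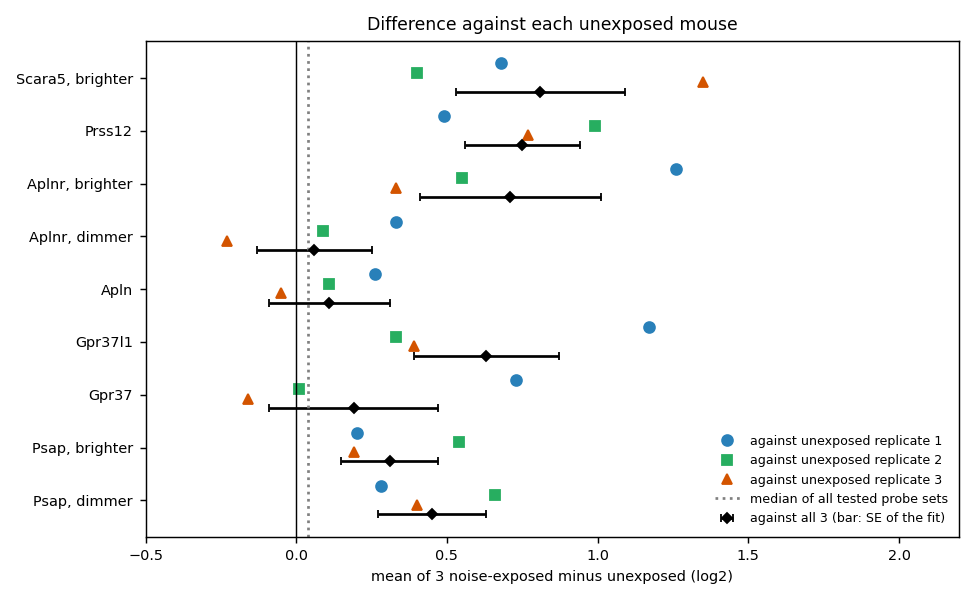
Mean log2 signal of the 3 noise-exposed mice minus that of each unexposed mouse (coloured markers) and minus the mean of all 3 (black, bar for the SE of the fit), for the 9 tested probe sets. For the brighter Aplnr probe set and Gpr37l1 the marker for unexposed replicate 1 lies far to the right, at 1.26 and 1.17, and for Scara5 that for replicate 3, at 1.35.

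Genes that work with the 7 were compared as 7 lists of 62 genes, of which 52 were on the array under 1 symbol and 41 were measured. None was called in either direction (limma, adjusted p from 0.711 to 0.994 over all probe sets), and 0 had an unadjusted p under 0.05. Of the 41, 26 had a difference above 0 and 15 below 0. Over 11861 genes with 1 probe set each, 63.3% lay above 0 with a median difference of 0.07. The groups were apart upward for 3 of the 41 and downward for 0, where 10.4% and 3.41% of all genes were.

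For Scara5 the neighbours were iron genes and other scavenger receptors. Of 11 measured genes of ferritin and iron handling, 4 had a difference above 0 and 7 below 0, with a median of -0.05. Fth1, the heavy chain of ferritin, averaged 12.60 ± 0.07 (SD, n = 3) after noise and 12.64 ± 0.18 without it. Tfrc, the transferrin receptor, averaged 11.96 ± 0.10 against 12.05 ± 0.06, and the iron exporter gene Slc40a1 5.11 ± 0.11 against 5.04 ± 0.36. The list ran from -0.33 (SE 0.37) for Hmox1, the heme-degrading oxygenase, to 0.20 (SE 0.15) for the iron transporter gene Slc11a2. Of the other class A scavenger receptors, Msr1 differed by -0.24 (SE 0.46), Scara3 by 0.17 (SE 0.16) and Colec12, also a collectin, by 0.33 (SE 0.16). Colec12 was higher in every noise-exposed than in every unexposed mouse, with an adjusted p of 0.711 from limma.

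For Prss12 they were its substrate and that substrate's receptors, with other proteases of neurons. Agrn, which encodes agrin, averaged 10.21 ± 0.10 (SD, n = 3) after noise and 9.99 ± 0.13 without it, a difference of 0.22 (SE 0.14), with the groups apart. Its receptor gene Lrp4 differed by 0.11 (SE 0.24), the adaptor gene Dok7 by 0.11 (SE 0.15) and Rapsn, a scaffold of the acetylcholine receptor that lay above the cutoff on 3 of 6 arrays, by -0.23 (SE 0.26). Among the extracellular proteases and serpins, Plat, the tissue plasminogen activator, differed by 0.17 (SE 0.24), the kallikrein gene Klk6 by 0.24 (SE 0.29) and its list companion Serpini1, neuroserpin, by -0.03 (SE 0.14). None of these 7 genes passed, and the lowest adjusted p was 0.748.

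In the apelin list, 6 of 9 measured genes lay above 0 with a median of 0.04. Mme, neprilysin, which degrades apelin, averaged 7.75 ± 0.03 (SD, n = 3) against 7.71 ± 0.03, and Furin, a convertase that matures the precursor, 9.90 ± 0.11 against 9.98 ± 0.09. Of the G protein and arrestin genes, Gnai1 differed by -0.05 (SE 0.15), Gna13 was the lowest at -0.10 (SE 0.13) and Arrb2 the highest at 0.22 (SE 0.15).

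Around prosaposin, Sort1, which carries it to lysosomes, differed by 0.15 (SE 0.14). Grn, progranulin, which binds prosaposin, differed by 0.01 (SE 0.18), and Ctsd, the cathepsin that cuts it, by 0.07 (SE 0.18). Of the enzymes and cofactors that act with saposins, 5 of 7 lay above 0 with a median of 0.19, the highest of the 7 list medians. Glb1, the lysosomal beta-galactosidase, averaged 5.77 ± 0.16 (SD, n = 3) against 5.46 ± 0.17 and was apart between the groups, at an adjusted p of 0.711 from limma. Galc, which degrades galactosylceramide of myelin, differed by 0.19 (SE 0.15), Asah1, acid ceramidase, by 0.02 (SE 0.18) and Gla, alpha-galactosidase, by -0.27 (SE 0.40).

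**Figure D3:**
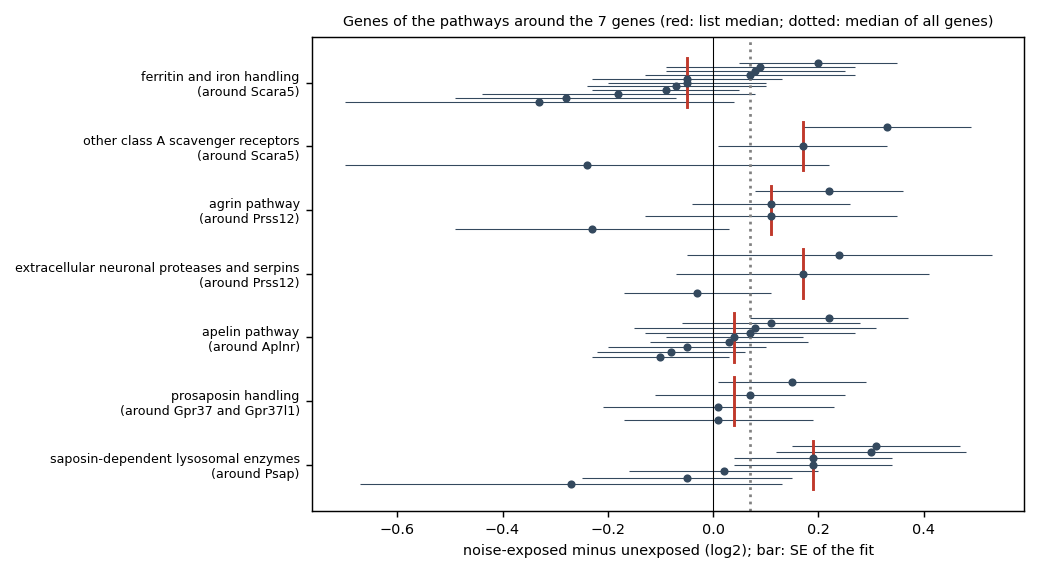
Difference of noise-exposed minus unexposed mice (log2, horizontal axis, bar for the SE of the fit) of the 41 measured genes in 7 lists, with the list median in red and the median of all genes, 0.07, dotted. List medians lie between -0.05 and 0.19, and no gene reaches 0.4.

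Markers of 11 cell types were read on the same arrays, and their part in the differences was not tested. The oligodendrocyte markers (4 of 6 measured, all 4 above the cutoff on all 6 arrays) had a mean log2 level of 7.40 to 7.99 on the noise-exposed arrays and of 6.71 to 7.61 on the unexposed arrays, with the lowest in unexposed replicate 1. All 4 had a difference above 0, with a median of 0.50. Mobp differed by 0.78 (SE 0.19) and Mog, both of central myelin, by 0.51 (SE 0.19), and limma called neither (adjusted p of 0.667 and 0.697). Both were higher in every noise-exposed than in every unexposed mouse, as were 10.4% of all genes. In limma, the unadjusted p was under 0.05 for 2 oligodendrocyte, 1 neuronal and 1 macrophage marker. Astrocyte markers (5 of 5 measured) ran from 9.20 to 9.47 on the noise-exposed arrays and were at 8.78 in unexposed replicate 1, against 9.50 and 9.34 in replicates 2 and 3. Gfap, an astrocyte filament, differed by 0.06 (SE 0.24) and the water channel gene Aqp4 by 0.23 (SE 0.25). Gpr37l1 and Gpr37 had their lowest values on that same array. The mean of the Schwann and satellite glial markers (6 of 8 measured) lay between 9.70 and 9.79 on all arrays, with Pmp22 at -0.05 (SE 0.13) and Cdh19 at 0.24 (SE 0.16). Its members did not move together. Fabp7, named after its values were seen, was at 8.98 in unexposed replicate 1, its lowest array too, against 9.85 and 9.86 in the other unexposed mice and 9.00 to 9.65 in the noise-exposed mice, while Egr2 and Pmp22 were at their highest there, at 11.70 and 13.36.

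Beside Aplnr, the endothelial markers (10 of 10 measured) had a mean level of 6.24 to 6.44 on the noise-exposed and of 6.04 to 6.48 on the unexposed arrays, again lowest in unexposed replicate 1. Pecam1 differed by 0.26 (SE 0.27) and Cdh5 by 0.03 (SE 0.19). Pericyte markers (4 of 5 measured) lay between 6.65 and 6.78 on all arrays, with Rgs5 at -0.27 (SE 0.21) and Pdgfrb at 0.25 (SE 0.16). Beside Scara5, fibroblast markers (7 of 10 measured) were at 8.66 to 8.96 on the noise-exposed and at 8.57 to 8.86 on the unexposed arrays, with Col1a1 at -0.05 (SE 0.36) and Col1a2 at 0.32 (SE 0.14). The lowest array of the fibroblast markers was unexposed replicate 3, as for Scara5, and also as for the neuronal (10.20) and osteoblast markers (8.02). The fibroblast markers were highest in noise-exposed replicate 3 (8.96), and Scara5 in noise-exposed replicate 1 (6.19). Macrophage markers (5 of 7 measured, all 5 above 0, median 0.24) ran from 6.45 to 6.61 and from 6.07 to 6.52, with Csf1r at 0.38 (SE 0.35) and Cd68 at 0.05 (SE 0.28). Their lowest array was unexposed replicate 1. Beside Prss12, neuronal markers (11 of 12 measured) ran from 10.29 to 10.56 and from 10.20 to 10.41. Of these, 8 had a difference above 0 and 3 below 0, with a median of 0.09. Tubb3 differed by 0.48 (SE 0.15, adjusted p of 0.667 from limma) and Nefl by 0.09 (SE 0.18), against 0.75 for Prss12. Like Mobp and Mog, the named markers Tubb3, Col1a2 and Cdh19 were higher in every noise-exposed than in every unexposed mouse. In osteoblasts (4 of 5 measured) Ibsp differed by 0.57 (SE 0.30) and Dmp1 by -0.14 (SE 0.20), and of 5 erythroid markers only Slc4a1 was measured, at 0.10 (SE 0.20). Above and below 0 lay 4 and 1 astrocyte (median 0.11), 2 and 4 Schwann and satellite glial (-0.07) and 8 and 2 endothelial markers (0.14). The counts were 2 and 2 for pericytes (median -0.01), 5 and 2 for fibroblasts (0.07) and 3 and 1 for osteoblasts (0.33).

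**Figure D4:**
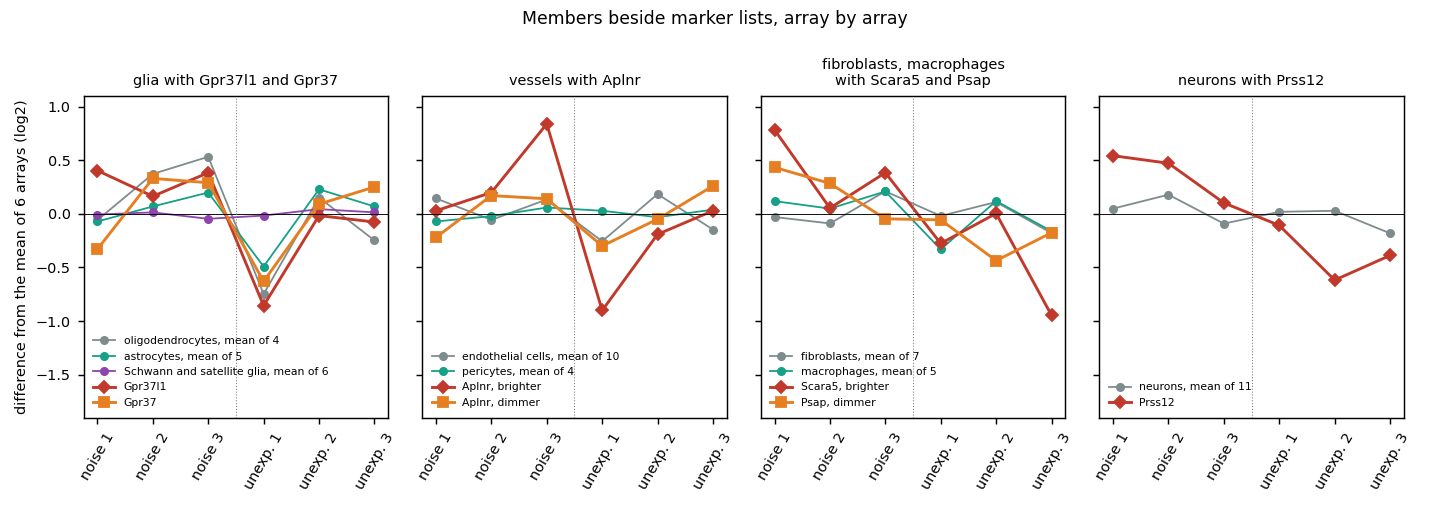
Difference of each array from the mean of 6 arrays (log2) for members (red, orange) and for the mean of the measured markers of a cell type (other colours), with the noise-exposed arrays left of the dotted line. Lines only join the arrays of 1 item. Unexposed replicate 1 is the lowest array for Gpr37l1, Gpr37, both Aplnr probe sets and the oligodendrocyte, astrocyte, endothelial and macrophage markers. The mean of the Schwann and satellite glial markers stays between 9.70 and 9.79.

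Input RNA also varied, from 10 to 18 ng in the noise-exposed mice and, in unexposed replicates 1 to 3, at 21, 8 and 8 ng. Unexposed replicate 1, with the lowest Gpr37l1, Gpr37 and Aplnr, thus had the most RNA, and its part in those values was not tested. The excess of 3′ over 5′ signal of beta-actin, a sign of RNA integrity and amplification, was 2.04 to 2.28 (log2) on the noise-exposed arrays. It was 1.93 to 2.08 on the unexposed arrays. For Gapdh the excess was 1.17 to 1.48 on the noise-exposed and 1.21 to 1.32 on the unexposed arrays. The part of this excess was not tested either.

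The profiles most like those of the 4 listed genes were taken as the named probe sets with the smallest root mean square difference over the 6 arrays after each probe set's mean was removed, out of 20791 compared. For Gpr37l1 these were Tyro3, a receptor tyrosine kinase of the TAM family, at 0.05 on the log2 scale, Cmtr1 at 0.08 and Greb1l at 0.09. Tyro3 had 5.43, 5.17 and 5.26 in the noise-exposed and 4.10, 4.94 and 4.91 in the unexposed mice, thus the same low unexposed replicate 1. For Prss12 they were Trim11 at 0.08, Scaf11 at 0.11 and Oasl2 at 0.12. Scara5 was less closely matched, with Eftud2 at 0.14, Pnpla7 at 0.15 and Cfp, properdin of the complement system, at 0.15. The brighter Aplnr probe set had Prr18, Plekhh1 and Htatsf1, each at 0.19. How close the nearest match of other genes lies was not computed, so this is a description only.

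In the authors' deposited list of called receptors, Scara5 stood first with a fold change of 1.75, followed by Prss12 with 1.68 and Aplnr with 1.64, and Gpr37l1 was the sixth with 1.55. The list gives all 4 the same rank score of 0.982, because that score takes 1 value for every fully separated probe set, and a q-value of 0%. Over the whole array, 8.47% of the tested probe sets were fully separated upward, and limma called 0 at an adjusted p under 0.05. The authors' deposited table of mean signals covers 17 arrays, of which 11 were made from cochlea in other series; it holds 7 of the 10 probe sets and tests each mean against a cutoff of 5.1. In that deposited table Prss12 had a mean of 7.09 (SD 0.35) with a corrected p of 5.87e-11, and the brighter Aplnr probe set one of 6.78 (SD 0.59) with 1.95e-06. Gpr37l1 had a mean of 7.21 with a wide SD of 1.15 (corrected p of 0.000737), and the brighter Scara5 probe set one of 6.81 with an SD of 1.14 (corrected p of 0.00909), in the authors' deposited table. Gpr37 (mean 6.16, corrected p of 0.0237) also passed there, while the dimmer Aplnr probe set (mean 5.75, corrected p of 0.0802) and the dimmer Scara5 probe set (mean 4.35) did not, in the same deposited table. Those values were normalized apart from the 6 arrays, so no level is compared between them.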

How the data were processed

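Modioli of 6 mice were measured on 1 Affymetrix array each; groups and replicate numbers come from the labels, which describe separate animals. The authors deposited log2 signals made by RMA over all 6 arrays together, per their deposited code file, in R 2.6.1 with Bioconductor release 2.1. RMA equalises the arrays' distributions, so a shift of most transcripts in 1 direction would not show. RNA was linearly amplified before labelling, per the labels' protocols. The authors' deposited list holds SAM's score, the fold ratio and the q-value (percent), from version 3.02 (rank statistic, 5000 permutations, minimum fold 1.45), and their deposited table of 17 arrays gives log2 means and Bonferroni-corrected p-values. The receptor table of 1369 probe sets equalled the value table within 5e-06.

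The 64 control probe sets were left out, and a probe set was tested if above 4.25 on at least 3 of 6 arrays (25200). The fit was limma 3.58.1 in R 4.3.3, two-sided, with Benjamini-Hochberg adjustment over all tested probe sets. Differences are noise-exposed minus unexposed. Each SE is limma's moderated one, which draws the spread of a probe set toward that of all tested probe sets. It can therefore differ from the SE that the printed SDs would give. Lists used the probe set with the highest mean of a gene. Of the probe sets, 34958 had 1 symbol, 932 several and 9211 none; 34754 matched RefSeq by Entrez ID. Members and lists were chosen with earlier results of these arrays known. Named were all members, in each pathway list the first 3 measured genes and those with the highest and lowest difference, in each marker list the first 2 measured genes, and the 3 nearest profiles; the neuron marker Snap25, Fabp7, Egr2, Apela and the hair cell markers were added to describe detection or spread. The fit was tested on simulated data that held no effect of litter, sex or day, so that test says nothing about these. Start-region sequences are RefSeq's (GRCm38.p6). Same-numbered mice did not deviate together (correlations of deviations from -0.04 to 0.09), so the numbers do not pair them. Alternatives covered normalization, signal filter, covariates, array weights and left-out arrays.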

Additional observations from a re-analysis of the deposited data

How the results depend on the processing

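Each of the 9 tested member differences was recomputed under 11 alternatives (renewed quantile normalization, median centring, the replicate block, day, sex and each array left out), 99 values in all. Of these, 93 moved by less than the spread between replicates and 6 by more. The replicate block holds each number once per group and could not move any of the 9 differences. These counts are therefore no measure of stability. With day of dissection as a term, which rests on unexposed replicate 1 alone, Prss12 was at 0.49, Aplnr at 1.26 (brighter probe set) and 0.33 (dimmer), Gpr37l1 at 1.17 and Gpr37 at 0.73. With sex as a term, which rests on unexposed replicate 2 alone, the brighter Psap probe set was larger at 0.54 and Prss12 at 0.99, while Scara5 (0.40), Aplnr (0.55, brighter) and Gpr37l1 (0.33) were smaller. With each array left out, Scara5 ranged from 0.54 to 1.01, Prss12 from 0.63 to 0.88, the brighter Aplnr probe set from 0.44 to 0.91 and Gpr37l1 from 0.36 to 0.78; the brighter Psap probe set ranged from 0.20 to 0.38. The sign changed in 4 of the 99, at -0.07 or -0.01, for the dimmer Aplnr probe set, Apln and Gpr37, each near 0 to begin with. limma called 0 probe sets over the array in all alternatives but 1, and left-out arrays gave 0 to 15. The 15, of which 3 were higher and 12 lower, came without unexposed replicate 2, the only unexposed female. That fit sets noise-exposed females against unexposed males alone, so sex cannot be told apart from exposure in it. Of the pathway genes 0 were called under every alternative run. With the replicate number as a block 0 probe sets were called. The 4 listed differences were again 0.81, 0.75, 0.71 and 0.63, because such a block leaves every difference of means unchanged. With 3 mice a group, whose litters differ, these arrays cannot separate exposure from litter.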
